A study of Mus musculus with 12 samples.

Results

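The genes that encode the proteins of the cytosolic ribosome were examined in hearts and cardiomyocytes lacking Med30, a subunit of the Mediator complex, which links transcription factors to RNA polymerase II. They were taken by symbol, as Rpl or Rps followed by a digit, Rplp0 to Rplp2 and Rpsa, leaving out ribosomal S6 kinases, an Rps19 binding protein and pseudogene symbols. Of 20775 genes in each table, 87 met this rule, 54 of the large and 33 of the small subunit. Total RNA depleted of ribosomal RNA was sequenced from 12 samples, 3 in each of 4 groups. At embryonic stage E10.5, hearts of Tnnt-Cre; Med30 f/f embryos (cKO) were compared with hearts of Cre-negative Med30 f/f littermates (Ctrl, called WT in the labels). At the adult stage, cardiomyocytes of αMHC-MerCreMer; Med30 f/f mice (icKO) were compared with those of Cre-negative Med30 f/f mice (Ctrl). The adult mice were labelled as 3 months of age, both groups had received tamoxifen (TAM), and the cells were isolated by enzymatic perfusion 4 weeks later. The labelled strain was C57BL/6, and the floxed exon 1 of Med30 came from a single recombinant ES cell clone. Both Cre drivers act in cardiomyocytes, so other cells keep Med30, and no group carried Cre without the floxed gene.

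Values are RPKM as deposited, that is reads scaled to the length of the gene and to the size of the library. The spacing of low values gave an estimated depth of 13690000 to 19920000 reads per sample at E10.5 and 11930000 to 17490000 at 4 weeks. Med30, counted over the whole gene, was 10.6, 13.3 and 11.3 RPKM in E10.5 Ctrl hearts and 1.38, 2.02 and 1.0 in cKO hearts. In adult cells it was 7.66, 7.45 and 7.66 in Ctrl and 3.81, 3.16 and 1.82 in icKO, so it was lower in every knockout sample of both stages. Summed RPKM of 10 cardiomyocyte markers was 7041 to 10389 in E10.5 Ctrl and 4945 to 5920 in cKO, and 27109 to 28483 in adult Ctrl and 9954 to 13065 in icKO. None of these markers was at 0 in any sample. With limma at an adjusted p under 0.05, 1 of the 10 was lower at E10.5, against 3.45% of all genes tested. At 4 weeks 8 were lower and 2 higher, against 18.1% and 60.6% of all genes tested. In such bulk samples, fewer cells of a type and less RNA per cell cannot be told apart.

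A ribosome is built from ribosomal RNA and a fixed set of proteins, so the genes of these proteins are active in every cell and are controlled together. Their mRNAs typically begin with a 5′ terminal oligopyrimidine (TOP) run, a C followed by other pyrimidines, through which mTOR signalling controls their translation. A few members have paralogs with tissue-restricted expression. The best known in heart is Rpl3l, which takes the place of Rpl3 in adult striated muscle.

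Rpl3 lies at chr15:80077791-80091868 on the minus strand and Rpl3l at chr17:24727820-24736143 on the plus strand (GRCm38, GENCODE M21). Their coding sequences, of 1209 and 1221 bases, were 73.7% identical over 1209 aligned bases, and the longest run without a mismatch was 22 bases. The first 120 coding bases (GENCODE M21) are shown because the results turn on telling this pair apart. Capitals mark the 31 mismatches.
Rpl3: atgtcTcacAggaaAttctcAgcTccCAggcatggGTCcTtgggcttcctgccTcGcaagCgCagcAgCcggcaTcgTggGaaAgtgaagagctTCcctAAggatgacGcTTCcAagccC
Rpl3l: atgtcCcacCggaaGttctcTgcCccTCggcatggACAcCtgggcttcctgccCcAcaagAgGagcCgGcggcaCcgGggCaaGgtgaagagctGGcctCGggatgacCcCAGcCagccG

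RefSeq promoter sequences (GRCm38, 250 bases before to 50 after the annotated start) matched 67 of the 87 members. A C followed by 4 bases that are each C or T stood at the annotated start of 22.4% of these 67 members, against 3.01% of all 27025 genes with a promoter and 3.03% of those tested at 4 weeks. The 10 bases before and 20 bases from the start are given for Rps6, the substrate of S6 kinases, for Rpl15 and for the reference gene Rps18, which hold this run. Those of Rpl13a and Rpl3l, which do not hold it at the annotated start, follow. Capitals mark the run of pyrimidines at the start.
Rps6: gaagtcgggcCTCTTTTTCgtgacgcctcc
Rpl15: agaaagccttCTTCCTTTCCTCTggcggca
Rps18: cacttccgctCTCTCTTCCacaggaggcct
Rpl13a: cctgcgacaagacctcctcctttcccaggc
Rpl3l: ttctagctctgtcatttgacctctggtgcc
These windows are chr4:86857348-86857377, chr14:18270967-18270996, chr17:33955646-33955675 and chr7:45128726-45128755 (minus strand) and chr17:24727816-24727845 (plus strand).

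The core CGGAAG bound by ETS factors, searched on both strands, was found in 64.2% of the 67 member promoters, in 18.8% of all promoters and in 38.2% of those of genes tested at 4 weeks. The palindrome CACGTG, an E-box, was in 8.96% of members and 12.9% of genes tested at 4 weeks. TATAAA on either strand was in 11.9% and 8.30%, and AAGATGGCG on either strand, bound by YY1, in 5.97% and 4.27%. The 100 bases before the start are shown for Rps6 and Rps2, whose log2 fold changes at 4 weeks were nearest to 0, for Rpl19, among those that rose most, and for Rpl3l. Capitals mark CGGAAG or its reverse complement CTTCCG.
Rps6: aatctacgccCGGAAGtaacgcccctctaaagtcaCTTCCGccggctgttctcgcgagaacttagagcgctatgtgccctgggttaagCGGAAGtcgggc
Rps2: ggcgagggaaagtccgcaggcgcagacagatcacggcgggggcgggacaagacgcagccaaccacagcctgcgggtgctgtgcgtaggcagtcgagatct
Rpl19: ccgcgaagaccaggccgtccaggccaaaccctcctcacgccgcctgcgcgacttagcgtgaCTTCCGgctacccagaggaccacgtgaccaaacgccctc
Rpl3l: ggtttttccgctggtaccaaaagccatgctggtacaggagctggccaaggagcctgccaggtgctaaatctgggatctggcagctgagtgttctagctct
They are chr4:86857368-86857467 (minus strand) and chr17:24719963-24720062, chr11:98026610-98026709 and chr17:24727726-24727825 (plus strand). The windows of Rps2 and Rpl3l hold no such match. The searched promoter of Rps2 does, outside its window, with first bases at −127 and 30 relative to the start. A match is a description of the letters, not a binding site.

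In adult cardiomyocytes the pair Rpl3 and Rpl3l changed places. Rpl3l was 139.5, 119.4 and 134.0 RPKM in the Ctrl samples and 11.5, 15.6 and 14.5 in the icKO samples. Its mean fell from 131.0 ± 10.4 to 13.9 ± 2.14 (SD, n = 3), a log2 fold change of −3.24 ± 0.12 (SE, limma adjusted p = 1.93e-07). Rpl3 was 8.65, 14.7 and 17.3 RPKM in Ctrl and 56.9, 61.6 and 60.4 in icKO. Its mean rose 4.41-fold, from 13.5 ± 4.41 to 59.6 ± 2.46 (SD, n = 3), a log2 fold change of 2.19 ± 0.21 (SE, limma adjusted p = 1.62e-05). The groups did not overlap for either gene, and the 2 genes had the lowest and the highest log2 fold change of all members tested. Both calls held in each of the 23 alternative settings, with log2 fold changes of −3.88 to −3.11 for Rpl3l and 1.32 to 2.39 for Rpl3.

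Rpl3l made up 94.2, 89.1 and 88.6% of the summed RPKM of the pair in adult Ctrl cells and 16.8, 20.3 and 19.4% in icKO cells. The mean share was 90.6 ± 3.10% in Ctrl and 18.8 ± 1.82% in icKO (SD, n = 3, exact permutation p = 0.1, the smallest two-sided p that 3 samples against 3 can give). The sum of the pair was 144.5 ± 9.19 RPKM in Ctrl and 73.6 ± 4.62 in icKO (SD, n = 3, exact permutation p = 0.1). After median-ratio scaling the sums were 175.8 ± 12.1 and 60.5 ± 4.81. The gain of Rpl3 in RPKM was thus smaller than the loss of Rpl3l.

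In embryonic hearts the pair was almost all Rpl3. Rpl3l was 0.337, 0.547 and 0 RPKM in Ctrl hearts and 0.330, 0.219 and 0 in cKO hearts, where 3 reads correspond to 0.1095 to 0.1594 RPKM, and it was too low to be tested. Rpl3 was 231.2, 196.8 and 198.0 RPKM in Ctrl and 149.1, 141.7 and 153.0 in cKO hearts, without overlap. Its log2 fold change of −0.49 ± 0.13 was not called (SE, limma adjusted p = 0.0664), and after median-ratio scaling, described further on, −0.37 was called lower (adjusted p = 0.0439). The embryonic and adult tables were normalized separately, so levels are set across them only side by side.

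**Figure D1:**
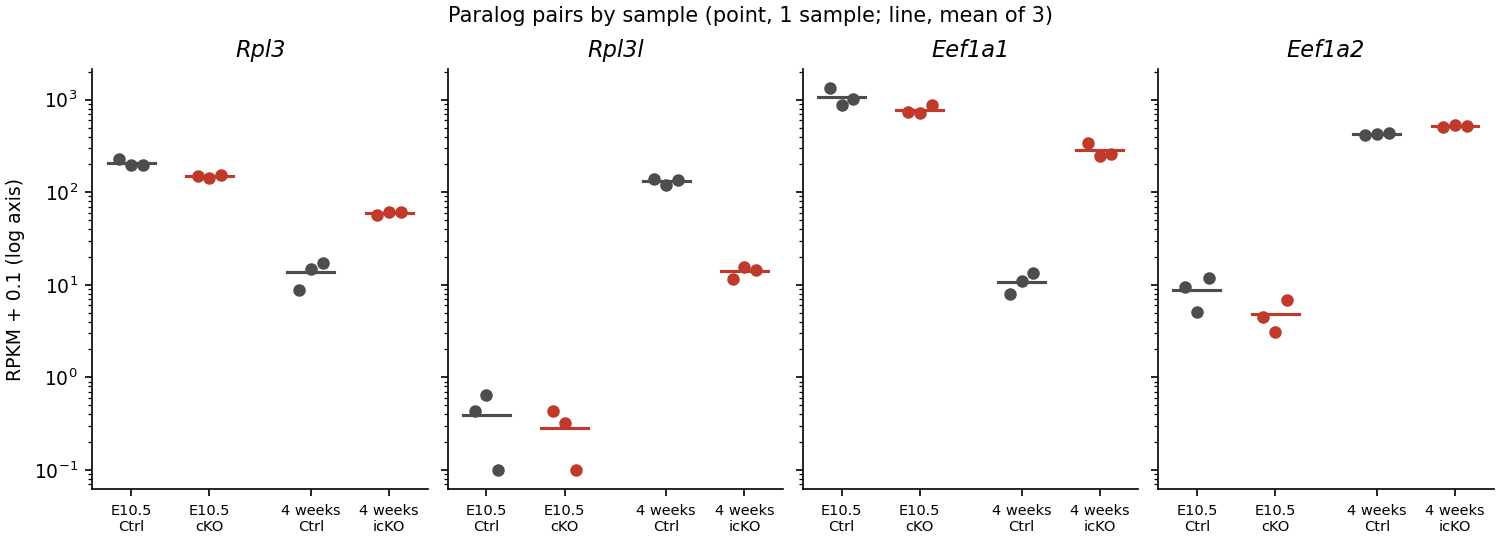
RPKM + 0.1 on a log axis for Rpl3, Rpl3l, Eef1a1 and Eef1a2 in each of the 12 samples (points), with the mean of each group as a line. At 4 weeks the 3 icKO samples of Rpl3 lie between 56.9 and 61.6 RPKM, above all Ctrl samples, and those of Rpl3l between 11.5 and 15.6, below all Ctrl samples.

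The 5 genes whose log2(RPKM + 0.1) followed Rpl3l most closely over the 6 adult samples were Cd36, Dnaja3, Ndc1, Hadhb and Ogdh (Pearson's r of 0.9992 to 0.9998). Cd36 is a fatty acid transporter, Hadhb a subunit of the mitochondrial trifunctional protein and Ogdh a subunit of the oxoglutarate dehydrogenase complex. Their log2 fold changes ran from −1.10 (Ogdh) to −0.84 (Hadhb). The 6 points form 2 groups, Ctrl and icKO, so r is set largely by the difference between them.

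Marker sums of endothelial cells, fibroblasts and macrophages rose with Rpl3 at 4 weeks. Those of mural and smooth muscle cells and of erythroid cells overlapped between the groups. Of 5 mural and smooth muscle markers tested, 3 were still called higher, and after median-ratio scaling 2 were higher and 1 lower. All 6 endothelial markers were above 0 in every adult sample. They summed to 8.25, 14.8 and 19.2 RPKM in the Ctrl samples, in the same order as Rpl3. In icKO they summed to 24.8, 21.8 and 32.7, not in the order of Rpl3, and 4 of 6 were called higher (1 after scaling). Of all 9517 genes tested, 60.6% were called higher as deposited and 33.6% after median-ratio scaling. The 8 fibroblast markers summed to 5.03, 6.3 and 8.39 RPKM in Ctrl, also in the order of Rpl3. In icKO they summed to 87.5, 60.4 and 63.6, not in that order. Of these, Tcf21 was at 0 in 2 Ctrl samples, and all 5 that could be tested were higher (4 after median-ratio scaling). The 7 macrophage markers summed to 2.83, 3.72 and 4.51 RPKM in Ctrl, again in the order of Rpl3, with Ptprc at 0 in 1 Ctrl sample. In icKO they summed to 9.59, 9.18 and 6.72, not in that order, and all 3 tested were called higher (1 after scaling). The 6 mural and smooth muscle markers summed to 47.0 to 72.3 RPKM in Ctrl and 51.7 to 80.1 in icKO. The 8 erythroid markers, of which up to 3 were at 0, summed to 1.29, 17.3 and 17.8 in Ctrl, in the order of Rpl3. In icKO they summed to 12.1, 22.3 and 9.78, not in that order. The part of these cells in the values of Rpl3 and of the other members was not tested.

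Most other ribosomal protein genes were higher in icKO cells on the deposited scale, as most genes were. Of 84 members tested at 4 weeks, 77 were called higher and 1 lower (limma, adjusted p under 0.05), that is 91.7% and 1.19%, where 60.6% of the 9517 genes tested were called higher and 18.1% lower. The median log2 fold change of the members was 0.73, with quartiles of 0.50 and 0.87, beside 0.57 for all genes. The groups did not overlap in 76 members higher in icKO and 1 lower, or 90.5% and 1.19%, against 62% and 18.9% of all genes. Beyond a log2 fold change of 1, 10 members were higher and 1 lower, or 11.9% and 1.19%, against 28% and 8.45% of all genes.

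Median-ratio scaling divides each sample by its median ratio to a reference sample and leaves a median of 0.01 over all genes at 4 weeks. On that scale the member median was 0.17, and 31 members were higher and 12 lower, or 36.9% and 14.3%, against 33.6% and 34.6% of all genes. Beyond a log2 fold change of 1, Rpl3 was the 1 member higher and Rpl3l the 1 lower, against 11.1% and 15.9% of all genes. The log2 fold change was negative in 25 members, where as deposited it was negative in Rpl3l alone. Values on both scales are therefore given for the genes below.

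**Figure D2:**
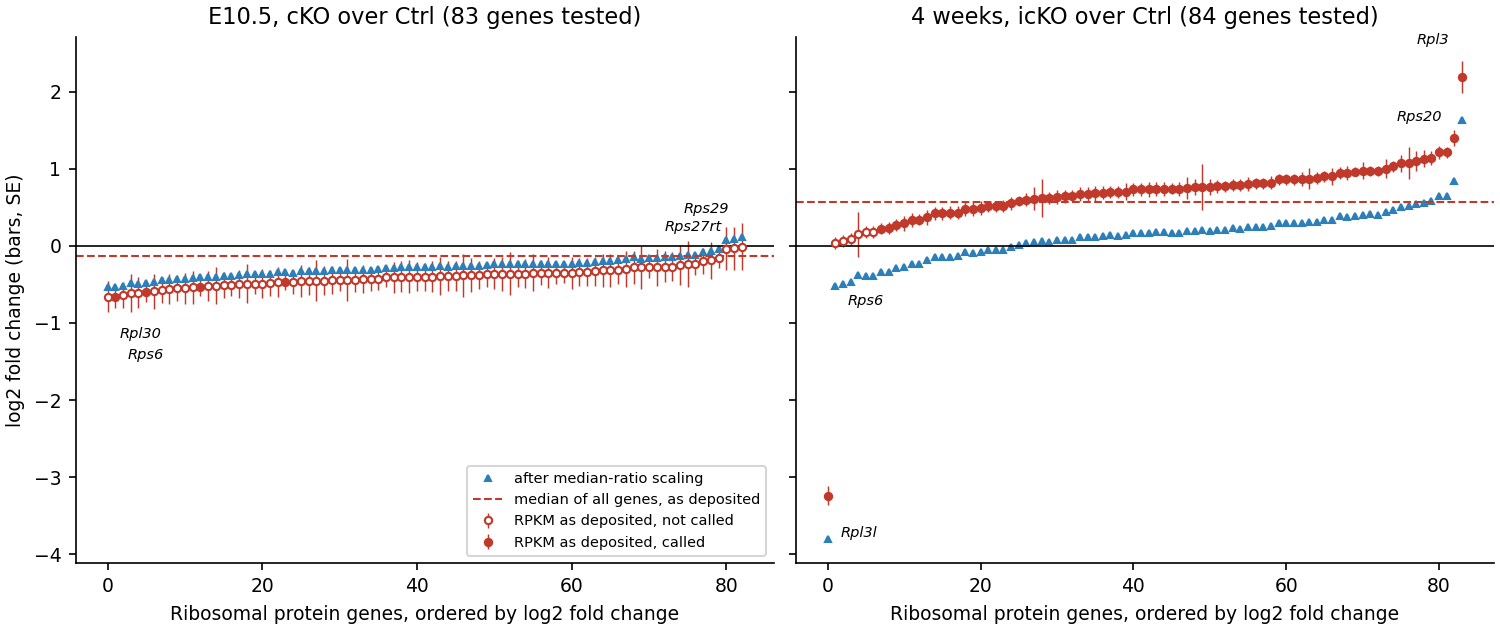
Log2 fold change of each ribosomal protein gene tested, ordered by size, at E10.5 (left) and 4 weeks (right), with circles for RPKM as deposited (bars, SE, filled where called) and triangles after median-ratio scaling. The dashed line is the median of all genes as deposited, −0.13 at E10.5 and 0.57 at 4 weeks, and most circles lie below it on the left and above it on the right.

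After Rpl3, the largest rises were those of Rps20, Rps27l and Rpl19. Rps20, a protein of the head of the small subunit, was 11.4, 9.4 and 9.99 RPKM in Ctrl and 28.5, 28.1 and 25.1 in icKO. Its log2 fold change was 1.40 ± 0.10 (SE, limma adjusted p = 2.55e-06) and 0.84 after median-ratio scaling (adjusted p = 5.77e-05). Rpl19, a protein of the large subunit, was 53.7, 51.3 and 51.3 RPKM in Ctrl and 128.8, 129.0 and 105.4 in icKO, with log2 fold changes of 1.21 as deposited and 0.64 after scaling. All icKO samples of both genes lay above all Ctrl samples, and both genes were called higher on both scales. Rpl41, Rps25, Rpl10a, Rpl36al, Rpl27a and Rps12 were the other members beyond a log2 fold change of 1 as deposited, at 1.03 to 1.14.

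Rps6, Rps2 and Rpl8 had the log2 fold changes nearest to 0 as deposited. Rps6 was 27.2, 25.3 and 27.5 RPKM in Ctrl and 27.4, 28.5 and 26.5 in icKO. Its log2 fold change was 0.04 ± 0.08 as deposited (SE, limma adjusted p = 0.618) and −0.52 after median-ratio scaling (adjusted p = 0.000252). Rps2, which lies at the mRNA entry channel, was 152.3, 147.9 and 154.8 RPKM in Ctrl and 144.0, 165.2 and 167.7 in icKO, with log2 fold changes of 0.06 and −0.50. Rpl8, a core protein near the peptidyl transferase centre, was 131.7, 134.4 and 140.8 in Ctrl and 142.2, 155.1 and 136.5 in icKO, with 0.09 and −0.47. Ctrl and icKO samples overlapped for all 3 genes as deposited, and after scaling all 3 were called lower. Rps9, Rps21 and Rpl37rt were the other members not called as deposited. Rps9, Rps21, Rpl23a, Rpsa and Rps4x were also lower after scaling, at −0.39 to −0.24, and the last 3 of them were called higher as deposited.

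By subunit, 48 of 51 large subunit genes tested at 4 weeks were higher and 1 lower, with a median log2 fold change of 0.74. Of 33 small subunit genes, 29 were higher and 0 lower, also at an unadjusted p under 0.05, with a median of 0.70. Of all genes, 60.6% were higher and 18.1% lower. After median-ratio scaling, 20 large subunit genes were higher and 4 lower, and 11 small subunit genes were higher and 8 lower, where 33.6% of all genes were higher and 34.6% lower. The share of small subunit genes called higher was then near that of all genes. The stalk genes, whose proteins recruit translation factors, were all called higher as deposited. Rplp0 was 139.4, 140.7 and 136.0 RPKM in Ctrl and 268.4, 248.9 and 258.1 in icKO, with log2 fold changes of 0.90 and, after scaling, 0.33. Rplp2 had 0.80 and 0.24, also called on both scales, and Rplp1 had 0.73 and 0.17, called as deposited only. Rpsa, also known as a laminin receptor, had 0.27 as deposited (called higher) and −0.29 after scaling (called lower).

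Among genes often used as qPCR references, Rpl13a was 78.3, 80.2 and 82.7 RPKM in adult Ctrl and 152.4, 167.8 and 144.5 in icKO, a log2 fold change of 0.94. Rpl32 and Rps18 had 0.74 and 0.62. All 3 were called higher as deposited. After median-ratio scaling, 0.38 for Rpl13a was still called, and 0.18 for Rpl32 and 0.05 for Rps18 were not. Rpl5 and Rpl11, which bind Mdm2 together with the 5S rRNA when free of the ribosome, were both called higher as deposited. Rpl5 was 18.7, 17.9 and 18.4 RPKM in Ctrl and 26.1, 24.9 and 22.8 in icKO, and its log2 fold change of 0.42 became −0.14 after scaling, not called. Rpl11 had 0.97 and 0.41, called higher on both scales. Rps19, a gene mutated in Diamond-Blackfan anaemia, had 0.74 (called) and 0.17 (not called).

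Rps27l, a p53-responsive paralog of Rps27, was 32.5, 30.5 and 31.5 RPKM in adult Ctrl and 75.3, 69.1 and 75.3 in icKO. Its log2 fold change was 1.21, and 0.65 after scaling, called higher on both. Rps27 went from 125.1, 130.9 and 129.2 to 179.9, 192.8 and 175.9 RPKM, with 0.51 (called higher) and −0.06 (not called). Rps27l made up 19.7 ± 0.854% of the pair in Ctrl and 28.6 ± 1.95% in icKO (SD, n = 3). Rps27 and the retrocopy Rps27rt are identical over all 252 coding bases, and their RPKM were nearly equal in every sample, so the values of both are uncertain. Other members have processed pseudogenes too, with which their reads may be shared.

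Rpl22l1 was 7.02, 11.7 and 14.8 RPKM in adult Ctrl and 15.4, 20.3 and 14.4 in icKO. It was called higher as deposited although the groups overlapped (log2 fold change 0.62 ± 0.25, SE, limma adjusted p = 0.043) and was not called after scaling, at 0.06. Its Ctrl values followed the order of Rpl3 and of the endothelial, fibroblast, macrophage and erythroid marker sums. Among these, its icKO values followed the order of the erythroid sum alone. The part of these cells was not tested. Rpl22 had 0.43 (called higher) and −0.14 (not called), and Rpl22l1 made up 36.1 ± 8.29% of the pair in Ctrl and 39.1 ± 3.46% in icKO (SD, n = 3).

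Rpl36al was 18.1, 13 and 9.03 RPKM in adult Ctrl, in the opposite order to Rpl3, and 27.4, 29.5 and 24.8 in icKO, without overlap. Its log2 fold changes were 1.07 (called) and, after scaling, 0.51 (not called). Its partner Rpl36a had 0.79 and 0.23, both called higher. Rpl7l1 and Rpl7 had 0.87 and 0.96 as deposited, both called higher, and Rpl7l1 made up 7.76 ± 0.667% of that pair in Ctrl and 7.41 ± 1.23% in icKO (SD, n = 3). Rpl39 and Rps4x were called higher as deposited, at 0.43 and 0.33. After scaling Rpl39 had −0.13 (not called) and Rps4x −0.24 (called lower). Rpl10l, Rpl39l and Rpl32l stayed between 0 and 0.575 RPKM in all 12 samples and were not tested, while Rpl10, the partner of Rpl10l, had 0.97 and 0.40, called higher on both scales.

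In embryonic hearts the members lay lower in cKO than in Ctrl samples, for most genes by an amount that the spread between samples did not allow to be called. All 83 members tested had a negative log2 fold change at E10.5, with a median of −0.40 and quartiles of −0.48 and −0.34, beside −0.13 for the 10885 genes of the fit. With limma, 4 fell and 0 rose at an adjusted p under 0.05, or 4.82% and 0%, against 3.45% and 0.864% of all genes. At an unadjusted p under 0.05, 36 members were lower and 0 higher, or 43.4% and 0%, against 19.2% and 4.39% of all genes. No member was called beyond a log2 fold change of 1, against 0.542% lower and 0.239% higher of all genes. The groups did not overlap in 29 members, all higher in Ctrl, or 34.9%, against 22.6% of all genes, and 6.5% of all genes were higher in cKO without overlap. After median-ratio scaling the member median was −0.28, beside −0.01 for all genes, 80 of 83 log2 fold changes were negative, and 5 members were lower and 0 higher (36 and 0 at an unadjusted p), or 6.02% and 0%, against 2.56% and 2.49% of all genes.

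Rps6, Rpl13 and Rpl15 were among the 4 genes that fell at E10.5. Rps6 was 93.1, 70.5 and 76.9 RPKM in Ctrl and 53.0, 43.9 and 54.5 in cKO, a log2 fold change of −0.66 ± 0.14 (SE, limma adjusted p = 0.0368). Rpl13 changed by −0.53 (limma adjusted p = 0.043) and Rpl15 by −0.47 (limma adjusted p = 0.0402) on the same scale. No cKO sample reached the lowest Ctrl sample in any of these 3. After median-ratio scaling the 5 genes called lower were Rps6, Rps23, Rpl13, Rpl3 and Rpl15. Without Ctrl replicate 1, Ctrl replicate 3, cKO replicate 1 or cKO replicate 2, 0 members were called lower as deposited, without cKO replicate 3 there were 3, and without Ctrl replicate 2 there were 4.

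Rpl30 and Rps23 had estimates close to that of Rps6 at E10.5 with larger errors. Rpl30 was 83.6, 45.0 and 58.1 RPKM in Ctrl and 34.8, 38.5 and 41.4 in cKO, with a log2 fold change of −0.66 ± 0.20 (SE, limma adjusted p = 0.0871). Rps23, a protein of the decoding centre, had −0.64 ± 0.17 (limma adjusted p = 0.0631), and Rpl35a had −0.61. At the other end were Rps29, Rps27rt, Rps27 and Rps27l, at −0.01, −0.03, −0.04 and −0.16. Of these, Rps29, Rps27rt and Rps27 lay above 0 after median-ratio scaling, at 0.11, 0.09 and 0.08. Rps29 was 96.8, 34.8 and 62.6 RPKM in Ctrl and 50.5, 61.0 and 67.1 in cKO, so the Ctrl samples alone spanned all cKO samples.

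Among the other named members at E10.5, Rplp0, Rplp1, Rplp2 and Rpsa had log2 fold changes of −0.41, −0.41, −0.35 and −0.51. The reference genes Rpl13a, Rpl32 and Rps18 had −0.43, −0.39 and −0.50, and Rpl5, Rpl11 and Rps19 had −0.36, −0.34 and −0.35. Among paralogs and partners, Rpl22l1 and Rpl22 had −0.61 and −0.34, Rpl7l1 and Rpl7 −0.28 and −0.51, and Rpl36al and Rpl36a −0.38 and −0.24. Rpl10, Rpl39 and Rps4x had −0.46, −0.46 and −0.55. None of these genes was called at E10.5 on either scale. Large and small subunit genes had medians of −0.41 and −0.38, beside −0.13 for all genes. Of the large subunit genes 3 of 50 were called lower and of the small 1 of 33, against 3.45% of all genes.

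Much of the spread at E10.5 was shared by the members of a sample. Of the 83 members tested, 79 had their highest value in Ctrl replicate 1 and 4 in Ctrl replicate 3. The deviation of the median member from its Ctrl mean on the log2 scale reached 0.33 in Ctrl replicate 1, −0.27 in Ctrl replicate 2 and −0.04 in Ctrl replicate 3. For cKO replicates 1 to 3 the values were −0.48, −0.52 and −0.20. By this measure cKO replicate 3 lay between the Ctrl samples. Ctrl replicate 1 was also the deepest library, with an estimated 19920000 reads, and had the largest summed RPKM, 197081 against 148074 to 172358 in the others. Erythroid markers summed to 318.9 to 1075 RPKM in Ctrl and 488.3 to 2864 in cKO hearts, with all 8 above 0 in every sample. Other marker sums did not overlap between the E10.5 groups. Those of mural and smooth muscle cells were 455.3 to 552.4 RPKM in Ctrl and 566.9 to 717.6 in cKO, with none of 6 at 0 and 0 of 5 tested called (limma, 1 higher at an unadjusted p). Those of macrophages were 8.75 to 11.5 and 4.98 to 6.82 RPKM, with up to 3 of 7 at 0 and 1 of 2 tested lower. Fibroblast sums were 90.6 to 165.7 and 116.1 to 132.5 RPKM and endothelial sums 107.6 to 155.2 and 133.3 to 142.3, overlapping, with none of their markers at 0. The part of depth and of these cells in the member values was not tested. The median SE of the log2 fold change was 0.19 for members and 0.15 for all genes at E10.5, and 0.14 for members after median-ratio scaling. At 4 weeks it was 0.08 for members and 0.13 for all genes.

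**Figure D3:**
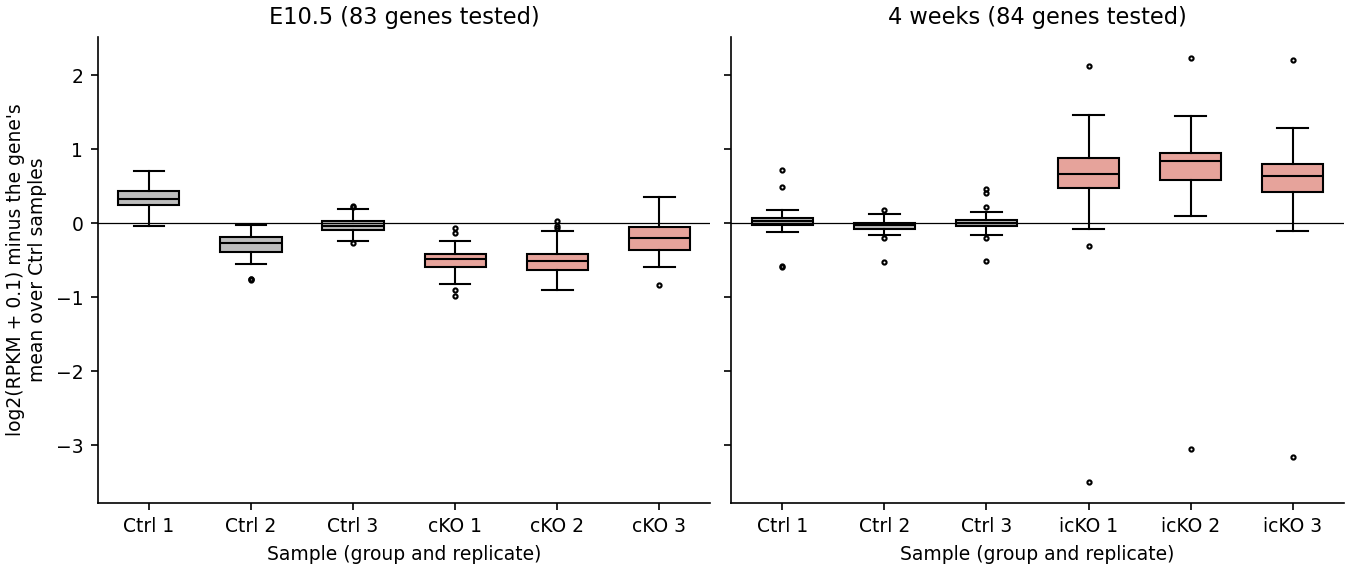
Box plots, for each of the 12 samples, of log2(RPKM + 0.1) of every ribosomal protein gene tested minus the mean of that gene over the 3 Ctrl samples (box, quartiles and median; dots, genes beyond the whiskers). At E10.5 the median of cKO replicate 3, −0.20, lies between those of Ctrl replicates 2 and 3, and at 4 weeks the medians of the 3 icKO samples lie 0.64 to 0.85 above 0.

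As a share of the summed RPKM of each sample, the 87 genes made up 8, 6.70 and 7.20% in E10.5 Ctrl hearts and 6.09, 6.04 and 6.76% in cKO hearts. Ctrl and cKO samples overlapped, with means of 7.30 ± 0.656% and 6.30 ± 0.402% (SD, n = 3, exact permutation p = 0.2). In adult cells the share was 2.30, 2.25 and 2.32% in Ctrl and 3.51, 3.61 and 3.53% in icKO. Every icKO sample lay above every Ctrl sample, with means of 2.29 ± 0.0361% in Ctrl and 3.55 ± 0.0529% in icKO (SD, n = 3, exact permutation p = 0.1). The ratio of large to small subunit RPKM was 1.23 to 1.26 in adult Ctrl and 1.31 to 1.35 in icKO (n = 3, exact permutation p = 0.1). At E10.5 it was 1.30 to 1.36 in Ctrl and 1.28 to 1.36 in cKO (n = 3, exact permutation p = 0.8).

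**Figure D4:**
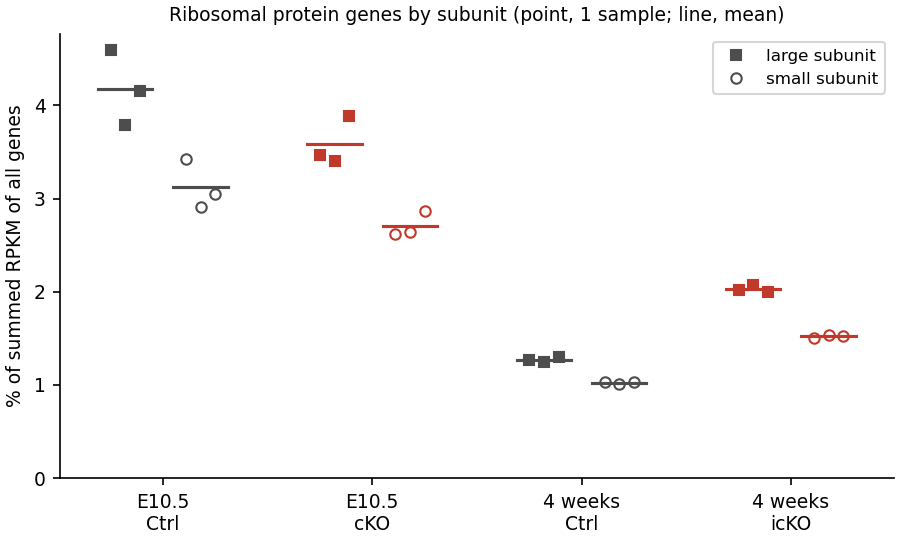
Percent of the summed RPKM of all genes held by large (filled squares) and small (open circles) subunit genes in each sample, with group means as lines. Large subunit genes hold 1.25 to 1.30% in the adult Ctrl samples and 2 to 2.07% in icKO, and at E10.5 the Ctrl and cKO samples overlap for the large subunit and not for the small.

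Levels per length differed among the members. Ctrl means of members tested ran from 1.44 to 467.1 RPKM at E10.5, with a median of 135.8, and Rpl4, Rpl12 and Rps14 were highest. In adult Ctrl cells they ran from 1.32 to 171.4 RPKM, with a median of 52.2, and Rplp1, Rps15, Rps2, Rplp0 and Rpl8 were highest. Across members, Pearson's r of the log2 fold change with log2 transcript length was −0.10 at E10.5 over 82 genes and 0.00 at 4 weeks over 83. With log2 Ctrl RPKM it was −0.12 and −0.29, or −0.11 and −0.24 without Rpl3 and Rpl3l. These genes share their libraries, and the Ctrl level enters the fold change, so the values are descriptions.

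The 32 members tagged in GENCODE as hosts of a noncoding RNA had median log2 fold changes of −0.44 at E10.5 and 0.75 at 4 weeks, beside −0.38 and 0.70 for the other members tested. The 14 members tested with a pyrimidine run at the annotated start had a median of 0.56 at 4 weeks and the 50 without it 0.74. For CGGAAG, the 42 with a match had 0.75 and the 22 without 0.64. At E10.5 the medians were −0.36 and −0.39 for the pyrimidine run (14 and 49 members) and −0.38 and −0.39 for CGGAAG (42 and 21).

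The knockout effect on ribosomal protein genes was compared between the stages as a contrast in a fit of all 12 samples. The log2 fold change at 4 weeks minus that at E10.5 was above 0 in all 83 members tested at both stages, at 0.42 to 2.68 with a median of 1.12. It was called in 78, all higher at 4 weeks, and 0 were lower, also at an unadjusted p under 0.05, or 94% and 0%, against 59.4% and 9.29% of 8909 genes. The median over all genes was 0.69. After median-ratio scaling, where that median was 0.02, the member median was 0.43 and 74 differences were above 0. On that scale 41 members were higher at 4 weeks and 0 lower (43 and 2 at an unadjusted p under 0.05), or 49.4% and 0%, against 27.2% and 25.7% of all genes.

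Rpl3 had the largest difference between stages, 2.68 ± 0.26 (SE, limma adjusted p = 1.89e-06), or 2 after scaling. Rps20 followed at 1.75 ± 0.26 (SE, limma adjusted p = 6.39e-05), or 1.07. The smallest were those of Rps2, 0.42 ± 0.13 (SE, limma adjusted p = 0.0131), and Rpl37rt, 0.43 ± 0.41 (SE, limma adjusted p = 0.361). They became −0.27 and −0.21 after scaling, neither called. Rpl37rt, Rps21, Rps27, Rps27rt and Rps29 were the 5 members not called as deposited. Across the 83 members, Pearson's r between the log2 fold changes of the 2 stages was 0.06, or 0.11 without Rpl3, and Spearman's rho was 0.09, given as a description.

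**Figure D5:**
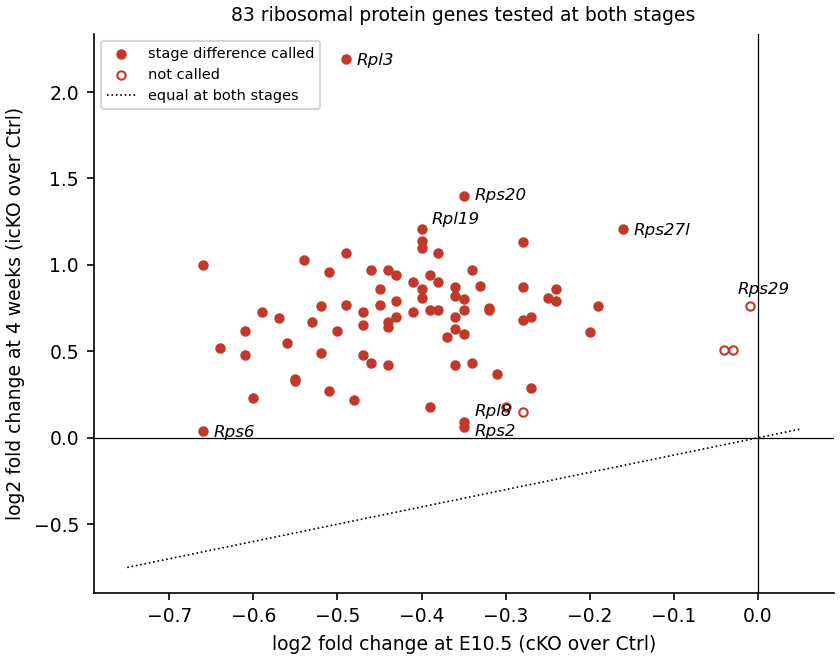
Log2 fold change at E10.5 (horizontal) against 4 weeks (vertical) for the 83 ribosomal protein genes tested at both stages, filled where the stage difference was called. All points lie above the dotted line of equal change, and Rpl3, at −0.49 and 2.19, lies farthest from it.

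The factors Eef1a1 and Eef1a2, which deliver aminoacyl-tRNA to the ribosome, are another pair of a broad and a muscle form. Eef1a1, the broad form, was 7.87, 10.8 and 13.4 RPKM in adult Ctrl cells and 340.7, 249.1 and 258.5 in icKO, a log2 fold change of 4.73 ± 0.19 (SE, limma adjusted p = 2.17e-07), and 4.17 after scaling. Its Ctrl values followed the order of Rpl3 and of the endothelial, fibroblast, macrophage and erythroid marker sums. Among these, its icKO values followed the order of the fibroblast sum alone. The part of these cells was not tested. Eef1a2, the form of adult muscle and neurons, was 419.2, 428.7 and 439.7 in Ctrl and 505.0, 537.4 and 522.9 in icKO, called higher as deposited (0.28) and lower after scaling (−0.28). Eef1a2 made up 97.6 ± 0.603% of the pair in Ctrl and 65.0 ± 4.61% in icKO (SD, n = 3). At E10.5 it made up 0.799 ± 0.295% in Ctrl and 0.586 ± 0.169% in cKO.

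A few genes of the ribosome itself have names outside the rule. Fau, which encodes a small subunit protein fused to a ubiquitin-like one, was 29.5, 28.6 and 30.6 RPKM in adult Ctrl and 74.4, 79.7 and 66.4 in icKO (log2 fold change 1.31, and 0.74 after scaling, called on both). The scaffold gene Rack1 had 0.71, called higher as deposited, and 0.15 after scaling, not called. At E10.5 Fau and Rack1 had −0.34 and −0.27, neither called, also at an unadjusted p under 0.05.

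The counts of the lists that follow stand beside 60.6% of all genes higher and 18.1% lower at 4 weeks as deposited, 33.6% and 34.6% after scaling, and 3.45% lower and 0.864% higher at E10.5. At an unadjusted p under 0.05 in limma, 19.2% of all genes were lower and 4.39% higher at E10.5. Of 45 ribosome biogenesis genes tested at 4 weeks, 39 were higher and 2 lower, with a median log2 fold change of 0.95, and after scaling 24 were higher and 6 lower, with a median of 0.40. Rrp12, which acts in the maturation and export of pre-ribosomes, was 4.91, 3.87 and 4.61 RPKM in Ctrl and 27.8, 23.6 and 19.8 in icKO (2.38, and 1.82 after scaling). Bop1, a factor of large subunit maturation, had 2.29 and 1.73. Dkc1, the pseudouridine synthase, and Rrs1 fell, at −0.66 and −0.46, and were also lower after scaling. At E10.5, 2 of 45 were lower, the nucleolar chaperone Npm1 (−0.82) and the rRNA methyltransferase Emg1 (−0.49), with a median of −0.32. Without adjustment, 23 of the 45 were lower at p under 0.05 (limma), where 19.2% of all genes were.

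Of 15 genes of RNA polymerase I and its factors, 11 were higher and 2 lower at 4 weeks, where 60.6% and 18.1% of all genes were, with a median of 0.52, and after scaling 4 were higher and 2 lower, with a median of −0.01. Polr1a, the largest subunit of the enzyme, was 11.1, 11.0 and 9.51 RPKM in Ctrl and 6.83, 6.17 and 6.26 in icKO (−0.71), and Taf1a had −0.82, both lower on both scales. Taf1c and Cd3eap had 1.39 and 1.07, higher on both scales. At E10.5, 2 of 15 were lower, the subunit genes Polr1d (−0.74) and Znrd1 (−0.70), and after scaling Znrd1, at −0.58, was no longer called.

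Of 29 initiation factors, 26 were higher and 2 lower at 4 weeks, with a median of 0.78, and after scaling 14 were higher and 4 lower, with a median of 0.22. Eif4a1, the helicase of the cap-binding complex, was 24.2, 20.7 and 21.1 RPKM in Ctrl and 92.2, 80.1 and 66.9 in icKO (1.84, and 1.28 after scaling), and Eif5 had 1.66. Eif1 and the cap-binding protein gene Eif4e were lower, at −0.26 and −0.22. At E10.5, Eif1ax was the 1 of 29 lower (−0.56). Of 8 elongation factors tested at 4 weeks, 6 were higher and 0 lower, also at an unadjusted p under 0.05, with Eef1b2 at 1.02 and Eef1g at 0.26. After scaling 3 were higher and 4 lower, Eef1g among the latter (−0.30). At E10.5, 0 of 9 were called by limma, with a median of −0.44. At an unadjusted p under 0.05, 5 of 9 were lower, against 19.2% of all genes.

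Of 6 other genes with TOP mRNAs, 4 were higher and 1 lower at 4 weeks, where 60.6% and 18.1% of all genes were. After scaling 3 were higher and 2 lower, against 33.6% and 34.6%, and Hnrnpa1, at 0.04 as deposited, was called lower at −0.52. Nap1l1, Btf3 and Tpt1 had 1.34, 0.90 and 0.39, where Tpt1 had −0.18 after scaling, not called. Naca, which also makes a muscle isoform, was 102.7, 107.4 and 98.2 RPKM in Ctrl and 50.9, 59.6 and 43.4 in icKO (−1.01), lower on both scales. Nap1l1 was the 1 of 6 lower at E10.5 (−0.54), joined after scaling by Hnrnpa1 (−0.63). Of 14 regulators of TOP mRNA translation, 10 were higher and 2 lower at 4 weeks, and 5 and 3 after scaling. The S6 kinase genes Rps6kb2 and Rps6kb1 had 2.04 and 1.25. Mlst8, a subunit of both mTOR complexes, and Eef2k, the kinase of elongation factor 2, had −1.29 and −1.52. At E10.5, 0 of the 14 were called by limma, and 3 were lower at an unadjusted p under 0.05, where 19.2% of all genes were. Of 10 ribosomal S6 kinase genes, 7 were tested at 4 weeks, of which 5 were higher and 2 lower, with Rps6ka4 at 1.27, Rps6ka2 at −1.64 and Rps6ka5 at −1.38. At E10.5, 1 of 9, Rps6ka6, was lower (−0.65), and it was not called after scaling (−0.53).

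Genes of the mitochondrial ribosome, which serves the organelle alone, are set beside the cytosolic ones. Of 78 tested at 4 weeks, 29 were higher and 26 lower, with a median log2 fold change of 0.11 where the cytosolic median was 0.73. After scaling 10 were higher and 53 lower, with a median of −0.46 where the cytosolic median was 0.17. Mrps28 was 25, 25.1 and 24.7 RPKM in Ctrl and 6.0, 6.13 and 5.91 in icKO (−2.03), and Mrps35 had −1.63. Mrps6 and Mrpl33 were highest, at 1.90 and 1.05. At E10.5, 8 of 78 were lower and 0 higher, with a median of −0.35 where the cytosolic median was −0.40. At an unadjusted p under 0.05 in limma, 35 of the 78 were lower and 1 higher, where 36 of 83 cytosolic members were lower. Of all genes, 19.2% were lower and 4.39% higher by that measure. Mrpl23 and Mrps28 were lowest, at −1.47 and −0.82, and Mrps6, at 0.40 as deposited (not called), was called higher after scaling, at 0.52. Mrpl23 was no longer called after scaling, at −1.36.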

How the data were processed

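RNA-seq was made from 3 Ctrl and 3 cKO samples of hearts at E10.5 and 3 Ctrl and 3 icKO samples of cardiomyocytes at 4 weeks. Per the labels, the authors used cutadapt 2.6, STAR 2.5.3a, HOMER 4.11.1 and DESeq2 1.12.4 with GRCm38, and deposited RPKM for 20775 genes per stage. RPKM are not corrected for a few abundant genes taking more of a library, so median-ratio scaling is given beside them. The tables also hold the log2 fold change, FDR and mean RPKM of the authors, which were not used. The labels do not say that samples are separate animals or litters, so p-values measure the spread between these samples.

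Genes with a mean RPKM above 1 were fitted per stage with limma 3.58.1 (lmFit, eBayes with trend, two-sided, R 4.3.3) on log2(RPKM + 0.1), which understates changes of low genes. The Benjamini-Hochberg adjustment ran over every gene of the fit, and called means an adjusted p under 0.05. Depth was estimated from low values, of which 68.0% to 74.7% were whole reads to within 0.1, against 20% by chance, so no read counts were recovered. Floors of 3 reads cover counting error only. The fits were tested on simulated data. Python 3.11.15, pandas 2.3.3, numpy 2.4.6, scipy 1.17.1 and matplotlib 3.10.9 were used for the rest.

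The members and gene lists were chosen with earlier results of these data known. Genes named are all paralogs with their partners, the 4 members with the lowest and the 4 with the highest log2 fold change per stage, the stalk genes, Rpsa, 3 reference genes, Rps6, Rpl5, Rpl11, Rps19, the 2 largest and 2 smallest stage differences, and per other list the 2 lowest and 2 highest called genes, with Eef1a1 and Eef1a2. Other members and Hnrnpa1 are named to complete a count, after their values were seen. The list of snoRNA host genes (0 of 8 matched a row) and Rps4l were not analysed here, and some genes that the rule would name are not reported here. Of the 87 members, 85 are annotated as protein-coding and 2 as pseudogenes. Alternatives were pseudocounts of 1 and 0.01, no filter, a mean RPKM above 5, median-ratio and quantile scaling, scaling without the 20 most abundant genes or to genes outside the rule, eBayes without trend, a replicate block, and leaving out 1 replicate at a time.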

Additional observations from a re-analysis of the deposited data

Results flagged for a closer look

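The knockout effect differed between the stages in a tested contrast. The log2 fold change of Rpl3 was 2.68 higher at 4 weeks than at E10.5, and that of Rps20 was 1.75 higher. In all, 78 members had a called difference with RPKM as deposited and 41 after median-ratio scaling, each of them higher at 4 weeks. These were 94% and 49.4% of the members tested, where 59.4% and 27.2% of 8909 genes were called higher at 4 weeks. The stages also differ in tissue (whole hearts or isolated cardiomyocytes), Cre driver and tamoxifen, which cannot be told apart from age.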

How the results depend on the processing

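At E10.5 the 4 members called lower became 0 without an RPKM filter, 2 with quantile normalization and 0 with eBayes without trend. Leaving out 1 replicate, with or without median-ratio scaling, gave 0 to 8. At 4 weeks the 77 called higher became 31 with median-ratio scaling. When 1 replicate was left out, with or without that scaling, there were 23 to 75. Without 1 replicate, again with or without that scaling, 1 to 12 were called lower. The 1 called lower became 12 with median-ratio scaling, 2 with quantile normalization and 2 when the 20 most abundant genes were kept out of the scaling. The member median at 4 weeks moved from 0.73 to 0.17, 0.30 and 0.49 under these 3 scalings. Without 1 replicate, with or without median-ratio scaling, it was 0.11 to 0.76. The 78 higher stage differences became 41 with median-ratio scaling and 47 with quantile normalization. The cause of these moves was not tested.

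The deviations of same-numbered samples had correlations of 0.014, 0.101 and −0.069 at E10.5 and of 0.152, 0.042 and 0.045, weak but all above 0, at 4 weeks. Those of samples with unlike numbers were −0.176 to 0.129 at E10.5 and −0.129 to 0.081 at 4 weeks. At both stages, not every sample correlated best with its own number. With a replicate block, 1 member was lower at E10.5, also with median-ratio scaling, and 77 were higher at 4 weeks. At 4 weeks the block with median-ratio scaling gave 28 higher, 11 lower and a median of 0.17.

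Log2 fold changes that turned sign at E10.5 were Rps27 0.079, Rps29 0.11 and Rps27rt 0.087 with median-ratio scaling and Rps27 0.23, Rps27l 0.036, Rps29 0.20 and Rps27rt 0.23 with quantile normalization. They were Rps27 0.13, Rps27l 0.010, Rps29 0.16 and Rps27rt 0.14 when the 20 most abundant genes were kept out, and Rps27 0.14, Rps27l 0.017, Rps29 0.17 and Rps27rt 0.15 when scaled to genes outside the rule. At 4 weeks they were Rpl22 −0.14, Rpl39 −0.13, Rps27 −0.056, Rps4x −0.24, Rpsa −0.29, Rps6 −0.52, Rpl5 −0.14, Rps2 −0.50, Rpl8 −0.47, Rpl37rt −0.38, Rps23 −0.046, Rps27rt −0.054, Rpl15 −0.084 and Rpl35a −0.089 with median-ratio scaling. Quantile normalization gave Rpl22 −0.077, Rpl39 −0.030, Rps4x −0.097, Rpsa −0.19, Rps6 −0.45, Rpl5 −0.085, Rps2 −0.031, Rpl8 −0.072, Rpl37rt −0.25, Rpl15 −0.055 and Rpl35a −0.0014, and keeping out the 20 most abundant genes gave Rps6 −0.20, Rps2 −0.18, Rpl8 −0.15 and Rpl37rt −0.079. The block with median-ratio scaling gave the values of that scaling alone. Leaving out 1 replicate, on either scale, gave ranges across 0 at E10.5 for Rpl36a −0.62 to 0.11, Rps27 −0.24 to 0.34, Rps27l −0.23 to 0.068, Rps29 −0.40 to 0.41 and Rps27rt −0.23 to 0.36. At 4 weeks these were Rpl22 −0.16 to 0.44, Rpl22l1 −0.25 to 0.86, Rpl39 −0.18 to 0.48, Rps27 −0.085 to 0.54, Rps4x −0.29 to 0.39, Rpsa −0.37 to 0.32, Rps6 −0.57 to 0.070, Rpl5 −0.17 to 0.47, Rps2 −0.56 to 0.13, Rpl8 −0.51 to 0.13, Rpl37rt −0.70 to 0.38, Rps23 −0.093 to 0.58, Rps27rt −0.086 to 0.54, Rpl15 −0.15 to 0.53 and Rpl35a −0.15 to 0.55.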
